A study of Mus musculus with 11 samples.

Results

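The effect of a cortical cold lesion in mice with constitutively active CREB in astrocytes was described from 11 of the 22 mice of the series, chosen by their titles. These were 6 transgenic mice with a cryolesion (TC) and 5 intact transgenic mice (T). All 11 carried GFA2-tTa/TetO-VP16-CREB on C57/Bl6J and were 5 to 7 months old. In this bitransgenic system a promoter fragment of the gene for glial fibrillary acidic protein (GFAP) drives a tetracycline-controlled activator in astrocytes, which in turn drives VP16-CREB, a form of the transcription factor CREB that is always active. In TC mice a dry ice pellet was held to the brain surface for 30 seconds and the cortex of the right hemisphere was taken 3 days later. T mice had the same transgenes and no lesion. Intact wild-type mice (WT, n = 6) and wild-type mice with the lesion (WTC, n = 5) were used to link the arrays and to compare the lesion effect between genotypes.

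A focal cold lesion kills a patch of cortex. Microglia and blood-borne macrophages clear the dead tissue, and astrocytes around it become reactive, which means that they enlarge, make more intermediate filament protein and release protease inhibitors and cytokines. CREB binds a DNA element, the cAMP response element or CRE, and in neurons it switches on immediate early genes after activity. In tissue as a whole, fewer cells of a type and less RNA per cell cannot be told apart.

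Each array carried 1 mouse in the red Cy5 dye and another in the green Cy3 dye, and no mouse was on more than 1 of the 11 arrays (A to F on slide 1, I to M on slide 2). Arrays I and J paired a T with a TC mouse, and the other 7 arrays with a T or TC mouse paired it with a wild-type mouse. Between 58.6% and 62.3% of the spots of a T or TC channel were well above background. The number of mice limits the precision. Slide 1 held 3 T and 1 TC mice, and slide 2 held 2 T and 5 TC mice. All 6 WT mice were on slide 1, with 2 WTC mice, and 3 WTC mice were on slide 2. The WTC minus WT ratios are therefore unbalanced over slide as well. The channel 2 labels of arrays I, J and K contradict the titles: they call TC113 (array I) and TC124 (array K) intact, and T132 (array J) lesioned. Mouse T151 had levels of 6.31 and 6.21 of the Y-linked genes Ddx3y and Eif2s3y, while the lowest of the 6 TC mice had 9.32 and 9.35.

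One lesioned mouse, TC113, differed from the rest of its group. Its mean level over the pan-reactive astrocyte list was 10.16, against 10.95 or more in the others and at most 9.85 in T mice. Its mean level over the mitosis list was 7.07, inside the T range of 7.03 to 7.60, and its mean level over the excitatory cortical layer list was 9.65, under the T range of 10.78 to 11.19. Mice TC124 and T132, whose 2 sets of labels also disagree, lay with the groups of their titles. Values are therefore given with and without TC113 for part of the lists and genes, and the counts of other lists also change without it.

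A pair of models of the same arrays was fitted with limma to 26082 features, each a gene or an unnamed transcript. The ratio fit used the 11 log2 ratios, and the separate-channel fit used the log2 level of each mouse. Adjusted p-values are Benjamini-Hochberg values over all features, from the separate-channel fit unless said otherwise, and a gene is said to have risen or fallen only where that value was under 0.05.

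Many more genes differed by a large factor upward than downward after the lesion. In the separate-channel fit 1242 features rose (4.76% of those tested) and 676 fell (2.59%). Of the risen features 412 changed at least 2-fold and 55 at least 4-fold. Of the fallen features 18 changed at least 2-fold and 0 at least 4-fold. The median log2 ratio was 0.77 among the risen and -0.45 among the fallen features, against -0.02 over all features. The same 1242 and 676 features had the same sign in the ratio fit, but there 0 features passed (0% of those tested), with 3110 at an unadjusted p under 0.05 against 6461 in the separate-channel fit. Without TC113 the separate-channel fit called 2127 features higher (8.16%) and 1166 lower (4.47%), among them 1194 of the 1242 and 509 of the 676. With slide as a block it called 671 higher and 201 lower of the 26082 features, among them 644 of the 1242 and 197 of the 676. The slide block counts of single lists below are to be read against these. Within slide 2, which holds 5 of the 6 TC mice, the fit called 0, with 3104 at an unadjusted p under 0.05. With the channel 2 labels in place of the titles it also called 0, with 1123. Leaving out T132 alone gave 268 higher and 77 lower. All 6 TC mice lay above all 5 T mice in 543 of 25986 features with a level in every mouse (2.09%) and below them in 734 (2.82%).

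**Figure D1:**
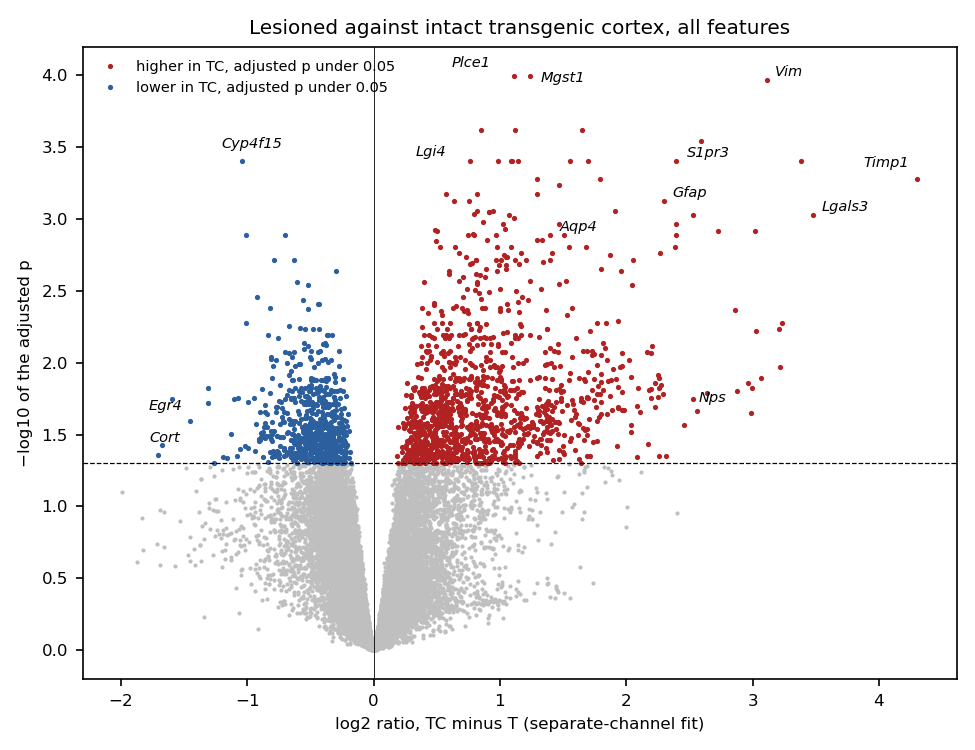
Log2 ratio of each feature between TC and T mice (horizontal) against the −log10 of its adjusted p in the separate-channel fit (vertical); the dashed line marks an adjusted p of 0.05. The 1242 features that rose (red) reach a log2 ratio of 4.30, and the 676 that fell (blue) reach -1.71.

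The authors' deposited table gives a TC minus T value for each of 59305 spots, of which it calls 961 higher and 208 lower. Its scale is not stated. Across the features the separate-channel log2 ratio had a slope of 0.89 on the value of the authors' deposited table, and the ratio fit one of 0.72. Matched to the features, the authors' deposited table called 623 higher (2.39%) and 131 lower (0.502%). Of these, 615 of the 623 (98.7%, or 49.5% of the features higher in the separate-channel fit) and 116 of the 131 (88.5%, or 17.2%) were also called here in the same direction, and 0 were called in opposite directions. The calls of all 3 sources rest on the same arrays.

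The smallest p-values of the ratio fit belonged to 3 genes whose T and TC levels did not overlap and for which TC113 lay close to the other TC mice. They were Plce1, a phospholipase C that also activates Ras-family proteins, Mgst1, a membrane-bound glutathione transferase, and Lgi4, a secreted glial protein. Plce1 had levels of 7.18, 7.06, 7.04, 7.09 and 7.08 in the 5 T mice, and in the 6 TC mice the lowest was 7.82, the median 8.13 and the highest, in TC113, 8.36. It rose by 1.11 ± 0.12 (SE) on the log2 scale (2.16-fold, adjusted p = 0.000102), and the ratio fit gave 1.24 ± 0.15 (adjusted p = 0.11). Mgst1 had 10.99, 10.26, 10.79, 10.66 and 10.56 in T mice, and from 11.65 over a median of 11.80 to 12.28 in TC mice. It rose by 1.24 ± 0.13 (2.36-fold, adjusted p = 0.000102). Lgi4 had 12.69, 12.33, 12.39, 12.26 and 12.56 in T mice, and from 12.92 over 13.15 to 13.47, again in TC113, in TC mice. It rose by 0.76 ± 0.10 (1.69-fold, adjusted p = 0.000394). They were chosen by the ratio fit, and both fits use the same arrays. All 3 were higher in the TC mouse on both direct arrays, with log2 ratios of 1.60 and 0.80 for Plce1, 1.50 and 1.09 for Mgst1 and 0.89 and 0.96 for Lgi4 on arrays I and J.

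Promoter sequences were read from RefSeq's table for GRCm38.p6, as the 250 bases before the start of transcription, for these genes, for Gfap and Timp1, and for Maff, Sst and Syn1, chosen after their sequences were seen because a window of each holds a full CRE. The table held 7 of the 8 genes. The windows were searched for TGACGTCA (the CRE), TGANTCA (the AP-1 site) and TTCNNNGAA (the STAT site), which read the same on both strands. Capitals mark a match. Timp1 lies at chrX:20869916-20870165 (plus strand), Gfap at chr11:102897201-102897450 (minus strand), Plce1 at chr19:38523947-38524196 (plus strand) and Mgst1, for the first of its 2 starts, at chr6:138140277-138140526 (plus strand). Maff, for the second of 3 starts, lies at chr15:79347270-79347519 (plus strand), Sst at chr16:23890845-23891094 (minus strand) and Syn1 at chrX:20920919-20921168 (minus strand).
Timp1: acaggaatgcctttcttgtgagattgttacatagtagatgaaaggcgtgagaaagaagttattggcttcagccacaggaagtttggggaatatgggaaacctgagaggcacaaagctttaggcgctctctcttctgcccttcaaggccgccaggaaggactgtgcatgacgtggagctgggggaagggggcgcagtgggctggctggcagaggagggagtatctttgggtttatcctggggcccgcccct
Gfap: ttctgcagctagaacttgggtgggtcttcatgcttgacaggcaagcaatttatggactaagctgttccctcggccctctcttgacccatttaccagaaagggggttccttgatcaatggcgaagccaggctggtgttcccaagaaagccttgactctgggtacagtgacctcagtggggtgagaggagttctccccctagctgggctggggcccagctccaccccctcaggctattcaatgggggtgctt
Plce1: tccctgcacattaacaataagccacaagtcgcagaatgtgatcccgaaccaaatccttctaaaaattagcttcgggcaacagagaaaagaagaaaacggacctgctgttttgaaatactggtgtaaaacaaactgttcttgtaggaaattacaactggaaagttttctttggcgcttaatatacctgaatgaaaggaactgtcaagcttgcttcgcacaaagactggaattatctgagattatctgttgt
Mgst1: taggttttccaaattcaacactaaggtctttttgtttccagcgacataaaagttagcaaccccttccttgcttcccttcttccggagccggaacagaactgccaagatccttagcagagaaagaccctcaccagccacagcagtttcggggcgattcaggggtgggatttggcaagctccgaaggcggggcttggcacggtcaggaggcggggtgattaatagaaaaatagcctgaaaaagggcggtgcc
Maff: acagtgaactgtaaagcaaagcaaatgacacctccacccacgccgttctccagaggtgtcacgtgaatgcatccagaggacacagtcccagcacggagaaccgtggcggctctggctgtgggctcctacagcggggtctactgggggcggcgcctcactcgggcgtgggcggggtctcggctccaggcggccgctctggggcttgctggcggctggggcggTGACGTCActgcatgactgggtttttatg
Sst: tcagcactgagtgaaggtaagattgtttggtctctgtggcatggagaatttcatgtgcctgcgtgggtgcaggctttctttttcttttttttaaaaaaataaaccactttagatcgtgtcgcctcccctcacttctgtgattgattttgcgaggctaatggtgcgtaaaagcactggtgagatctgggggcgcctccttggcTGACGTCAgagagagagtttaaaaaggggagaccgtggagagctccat
Syn1: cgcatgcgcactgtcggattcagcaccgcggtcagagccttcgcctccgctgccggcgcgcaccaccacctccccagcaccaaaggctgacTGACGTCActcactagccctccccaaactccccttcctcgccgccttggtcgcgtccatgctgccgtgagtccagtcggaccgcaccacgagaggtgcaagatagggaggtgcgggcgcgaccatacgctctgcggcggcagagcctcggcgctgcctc
None of the windows of Timp1, Gfap, Plce1 and Mgst1 held these letters. Counted back from the start, the CRE begins at position -29 in Maff, -48 in Sst and -159 in Syn1. Counted per window, a CRE was held by 1.55% of the 32851 promoters listed, an AP-1 site by 6.75% and a STAT site by 7.02%. The shares of genes that follow count a match in any window of a gene, so they are not comparable with these. Among 12729 measured genes with a promoter in the table, 2.76% held a CRE, against 12 of 838 genes that rose (1.43%) and 12 of 403 that fell (2.98%). An AP-1 site was held by 5.98% of the measured genes, by 8.47% of those that rose and by 5.46% of those that fell, and a STAT site by 7.30%, 8.35% and 4.71%. These shares describe the sequences and were not tested. Of Maff, Sst and Syn1, only Maff passed. Maff, a small basic leucine zipper factor, rose by 1.01 ± 0.25 (adjusted p = 0.023), while the neuropeptide gene Sst had -0.70 ± 0.23 (adjusted p = 0.069) and the synaptic vesicle gene Syn1 -0.32 ± 0.11 (adjusted p = 0.079), neither of which passed.

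The genes described next are the 12 in each direction with the largest ratios among genes with a symbol that passed and had the same sign on both direct arrays. The largest rise was that of Timp1, an inhibitor of matrix metalloproteinases made by reactive astrocytes. Its levels were 7.03, 7.87, 6.66, 6.95 and 7.85 in T mice. In TC mice they ran from 9.73 in TC113 over a median of 11.92 to 13.71, so the groups did not overlap. It rose by 4.30 ± 0.58 (19.8-fold, adjusted p = 0.000533). The galectin gene Lgals3, a product of phagocytes, rose by 3.48 ± 0.51 (11.2-fold, adjusted p = 0.000944), with 8.41 to 8.73 in T mice and 9.88 (TC113) to 14.25 in TC mice. The tubulin genes Tubb6 and Tuba1c rose by 3.38 ± 0.44 and 3.21 ± 0.61. The other large rises were those of phagocyte and glial genes: the inhibitory receptor Lilrb4a (3.22 ± 0.68), the intermediate filament Vim (3.11 ± 0.33), osteopontin, Spp1 (3.03 ± 0.58), Gpnmb (3.02 ± 0.46), the macrophage protein Cd5l (3.00 ± 0.67) and the lysozyme Lyz1 (2.86 ± 0.52). Lilrb4a, Tuba1c and Cd5l overlapped between the groups, Cd5l was well above background in 1 of 5 T mice, and TC113 was the lowest TC mouse for Cd5l at 6.15, against 8.75 or more in the others. The 2 probes of Lilrb4a gave 1.58 and 3.22.

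Nps and Tgm1 were at background in most T mice. Nps, the precursor of the neuropeptide S, was well above background in 1 of 5 T mice, with levels of 6.09, 6.48, 6.00, 6.13 and 6.06. In TC mice its levels were 6.13 in TC113, with a median of 9.68 and a highest value of 12.33. It rose by 2.97 ± 0.66 (adjusted p = 0.014). The transglutaminase gene Tgm1 was not well above background in any T mouse, and in TC mice it had 5.95 in TC113, a median of 9.34 and a highest value of 12.12. The group means give at least an 8.84-fold rise, where each T mouse is set to the higher of the probe's own level and that of the dimmest probe well above background. The fit, which also has the dye and array terms, gave less, 7.35-fold (adjusted p = 0.016), so the bound holds for the group means only.

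**Figure D2:**
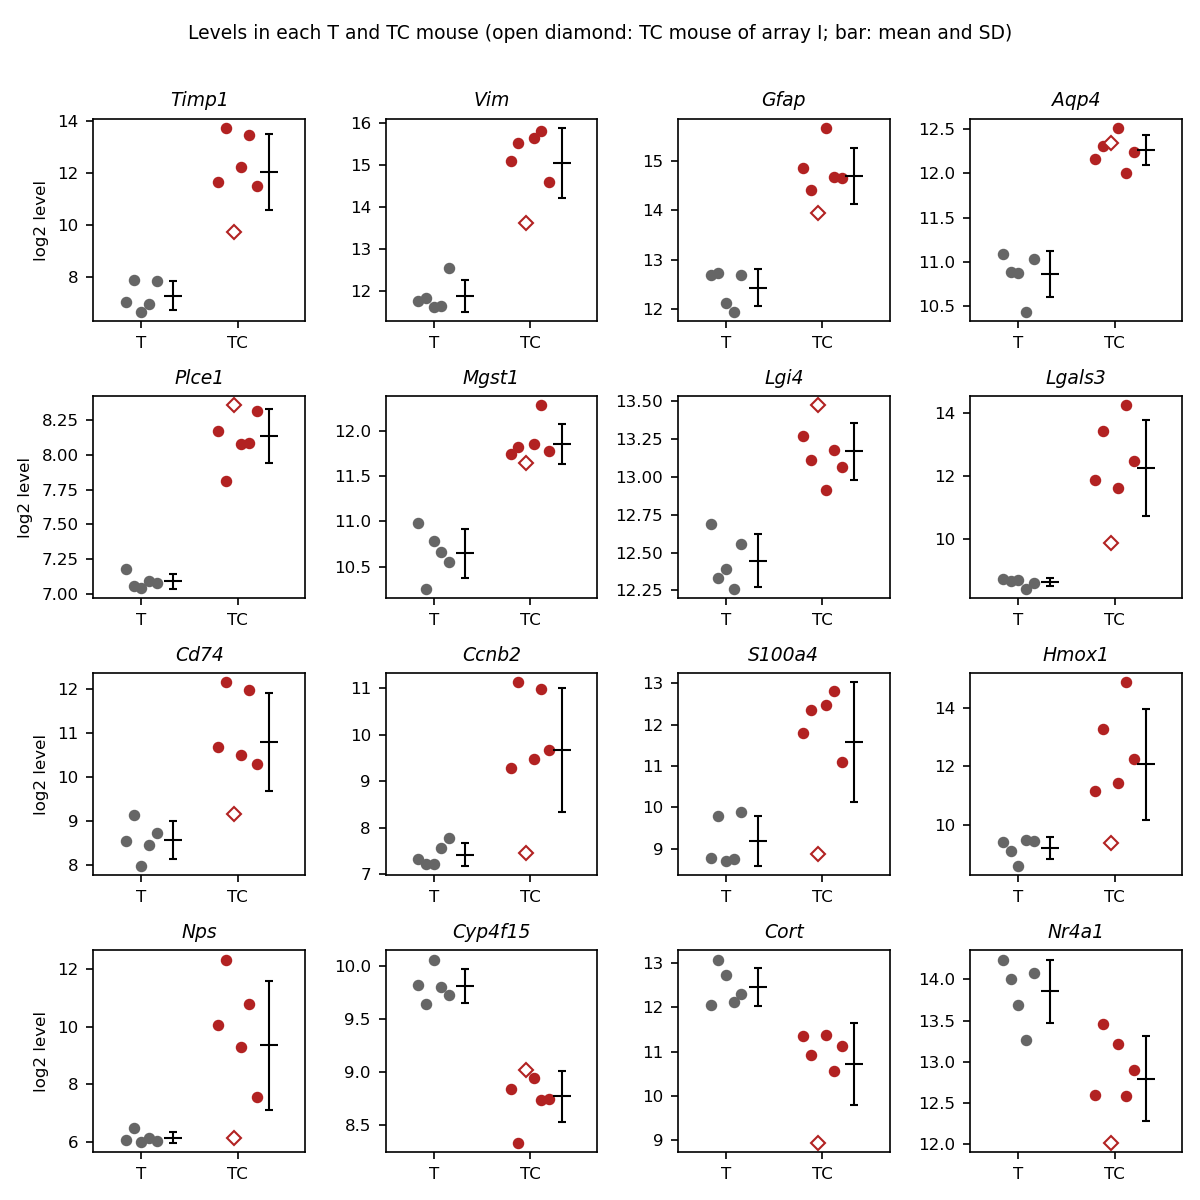
Log2 level of 16 genes in each of 5 T and 6 TC mice, each panel on its own scale, with the mean and SD beside the points and TC113 as an open diamond. TC113 lies with the other TC mice for Aqp4, Plce1, Mgst1, Lgi4 and Cyp4f15, and near the T mice for Ccnb2, S100a4, Hmox1 and Nps.

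Genes of reactive astrocytes rose. Of 25 measured genes of the pan-reactive list 15 rose and 0 fell, with a median log2 ratio of 1.66 (2.01 without TC113, where 20 rose). Gfap, the main intermediate filament of astrocytes, had levels of 12.70, 12.74, 12.13, 11.95 and 12.68 in T mice and from 13.96 in TC113 over 14.67 to 15.66 in TC mice. It rose by 2.30 ± 0.32 (4.92-fold, adjusted p = 0.00075). Its 3 probes gave 1.82 to 2.55. Vim had 11.62 to 12.55 in T mice and 13.61 (TC113) to 15.83 in TC mice. The sphingosine phosphate receptor gene S1pr3 rose by 2.40 ± 0.31 and the matrix glycoprotein gene Thbs2 by 0.99 ± 0.13 (adjusted p = 0.000394). Of 12 genes of the list of neuroprotective, A2-type astrocytes 8 rose and 0 fell (median 0.86), among them the membrane proteins Emp1 (1.97 ± 0.41) and Cd109 (1.04 ± 0.24), Tgm1, and the pentraxin Ptx3, which was not well above background in any T mouse. Its group means give at least a 2.65-fold rise, and the fit gave 1.32 on the log2 scale. Only 3 of the 12 passed with slide as a block, not Ptx3 (adjusted p = 0.074).

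Most genes of homeostatic astrocytes did not pass. Of 24 measured genes 5 rose and 0 fell (median 0.25). TC113 had the highest mean level of this list, 13.14, against at most 12.92 in the other TC mice. Without it 5 rose and 1 fell (median 0.19). Aqp4, the water channel of astrocyte endfeet, had 10.44 to 11.09 in T mice and a median of 12.28 in TC mice, with TC113 at 12.34, and the groups did not overlap. It rose by 1.40 ± 0.21 (2.63-fold, adjusted p = 0.0013). Aldh1l1, a folate enzyme widely used as an astrocyte marker, rose by 1.06 ± 0.19, and the transcription factor gene Sox9, which is on both astrocyte lists, by 0.42 ± 0.08.

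Phagocyte genes rose, with TC113 near the T mice in the mean level of both microglia lists. The list of phagocytic microglia gave 12 of 19 genes higher and 0 lower (median 1.31, 1.65 without TC113), including Lgals3, Gpnmb, the tetraspanin Cd9 (1.47 ± 0.25) and the lysosomal protein Cd63 (1.17 ± 0.22). Its mean level was 10.20 to 10.50 in T mice, 10.52 in TC113 and 11.44 to 12.69 in the other TC mice. TC113 lay further above the T mice for Lgals3 (9.88 against at most 8.73) and Gpnmb (9.445 against at most 7.89). Of 18 genes of homeostatic microglia 8 rose and 0 fell (median 0.77), among them the signalling adaptor Tyrobp (1.40 ± 0.28), Fcrls (1.86 ± 0.41) and the lipid receptor Trem2 (1.32 ± 0.34). No member of that list had all TC above all T mice, which only 2.09% of all features had. In the mean level of the list TC113 lay inside the T range at 11.37. Aif1, a calcium-binding protein of microglia and macrophages also called Iba1, had 11.58, 11.77, 11.41, 11.53 and 11.69 in T mice, 11.19 in TC113 and at least 12.88 in the other TC mice. It rose by 1.41 ± 0.38 (adjusted p = 0.030), and by 1.91 without TC113. The slide block ended the call of Aif1 (adjusted p = 0.074) and of Trem2 (adjusted p = 0.062), and left 3 of the 18 homeostatic genes.

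Of 23 monocyte and macrophage genes 11 rose and 0 fell (median 1.26). Without TC113 20 rose (median 1.63). Lyz2 rose by 2.20 ± 0.44, S100a4 by 2.18 ± 0.50 and S100a6 by 1.73 ± 0.39, both calcium-binding proteins of motile cells. S100a4 was 8.77, 9.79, 8.70, 8.75 and 9.89 in T mice, 8.88 in TC113 and 11.10 to 12.82 in the other TC mice. Among pattern recognition receptors, Fc receptors and NADPH oxidase genes 18 of 23 rose and 0 fell (median 1.01), the highest share of any list with over 20 measured members. The Toll-like receptor gene Tlr2 rose by 1.93 ± 0.36 and the Fc receptor gene Fcgr2b by 1.77 ± 0.33. The oxidase subunit genes Rac2 and Cyba rose by 1.83 ± 0.37 and 1.64 ± 0.39. The slide block left 6 of the 23, where it called 671 of all 26082 features higher.

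Neutrophil and lymphocyte genes gave few calls. Of 11 measured neutrophil genes 0 passed (median 0.19); the protease gene Mmp8 was well above background in 0 T and 3 TC mice. Lcn2, an iron-binding acute-phase protein that reactive astrocytes make too, had 1.996 ± 0.83 (adjusted p = 0.14) and 2.82 without TC113, where it passed (adjusted p = 0.015). Among 14 T and B lymphocyte genes 1 passed, the B cell receptor subunit Cd79b, which rose by 0.85 ± 0.25 (adjusted p = 0.044, median of the list 0.03) and did not pass with slide as a block (adjusted p = 0.099).

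Genes of chemokine and cytokine signalling rose. Of 24 chemokine and receptor genes 8 rose and 1 fell (median 1.01), and without TC113 14 rose and 1 fell (median 1.33). The mean level of this list in TC113, 7.98, lay inside the T range of 7.83 to 8.35. The ligands Ccl12 (2.26 ± 0.51), Ccl6 (1.63 ± 0.35) and Ccl9 (1.43 ± 0.30), which attract monocytes, rose, and the neuronal chemokine Cx3cl1 fell by 0.77 ± 0.16 (adjusted p = 0.0097). Of 32 genes of the interleukin-1, interleukin-6 and TNF pathways 11 rose and 0 fell (median 0.38), and without TC113 18 rose (median 0.50). The rises with all mice included the NF-kappaB pathway genes Bcl3 (2.39 ± 0.38) and Nfkb2 (1.01 ± 0.16), the TNF receptor Tnfrsf1a (1.53 ± 0.26) and the TNF receptor-associated factor Traf1 (1.05 ± 0.17). Of 19 complement genes 9 rose and 0 fell (median 1.02), among them the initiator subunit C1qb (1.41 ± 0.31), C4b (1.57 ± 0.32), the inhibitor Serping1 (1.34 ± 0.21) and the receptor subunit Itgb2 (1.30 ± 0.28). Leaving out TC113 gave 12 complement rises (median 1.35). The mean level of the complement list in TC113, 9.90, lay inside the T range of 9.84 to 9.96.

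Antigen presentation and interferon response genes rose as well. Of 13 MHC class II genes 7 rose and 0 fell (median 0.83). Cd74, the invariant chain that guides class II molecules, had 8.53, 9.13, 7.97, 8.45 and 8.73 in T mice, 9.16 in TC113 and 10.30 to 12.16 in the other TC mice. It rose by 2.04 ± 0.44, H2-Ab1 by 2.28 ± 0.51 and H2-Eb1 by 1.95 ± 0.41. Of 20 MHC class I and immunoproteasome genes 9 rose and 0 fell (median 0.82), among them H2-D1 (1.31 ± 0.31), the peptide transporter Tap2 (0.91 ± 0.22) and the proteasome activator Psme2 (0.60 ± 0.15). MHC genes are near-identical copies that probes may not tell apart. All 32 interferon response genes had positive ratios (median 1.27) and 9 passed, among them Bst2 (2.04 ± 0.55), the GTPase Gbp2 (1.56 ± 0.43) and the transcription factor Irf8 (1.35 ± 0.35). Their mean level ran from 8.57 to 9.54 in T mice and from 9.03 to 12.04 in TC mice, so the groups overlapped. With slide as a block 1 class I gene and 0 interferon genes passed, and Tap2 (adjusted p = 0.054) and Psme2 (0.065) did not. Without TC113 16 and 23 passed.

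Genes of dividing cells rose, and TC113 lay with the T mice. Of 27 genes of mitosis 19 rose and 0 fell (median 1.35), and without TC113 26 rose (median 1.81). Ccnb2, a cyclin that starts mitosis, had 7.33, 7.22, 7.22, 7.55 and 7.79 in T mice, 7.46 in TC113 and 9.29 to 11.12 in the other TC mice. It rose by 2.02 ± 0.42 (4.07-fold, adjusted p = 0.0096). The spindle protein Prc1 rose by 2.10 ± 0.47, the activator of the anaphase-promoting complex Cdc20 by 1.77 ± 0.41 and the kinase Cdk1, well above background in 2 of 5 T mice, by 1.49 ± 0.35. The slide block left 5 of the 27. Of 30 DNA replication genes 7 rose and 0 fell (median 0.56), among them thymidine kinase, Tk1 (2.20 ± 0.52), Gins2 (1.02 ± 0.25), ribonucleotide reductase, Rrm1 (0.77 ± 0.16), and the sliding clamp Pcna (0.70 ± 0.16). Leaving out TC113 gave 19 rises among DNA replication genes (median 0.69). Ribosome biogenesis genes had a median of 0.03 and 0 of 24 passed.

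**Figure D3:**
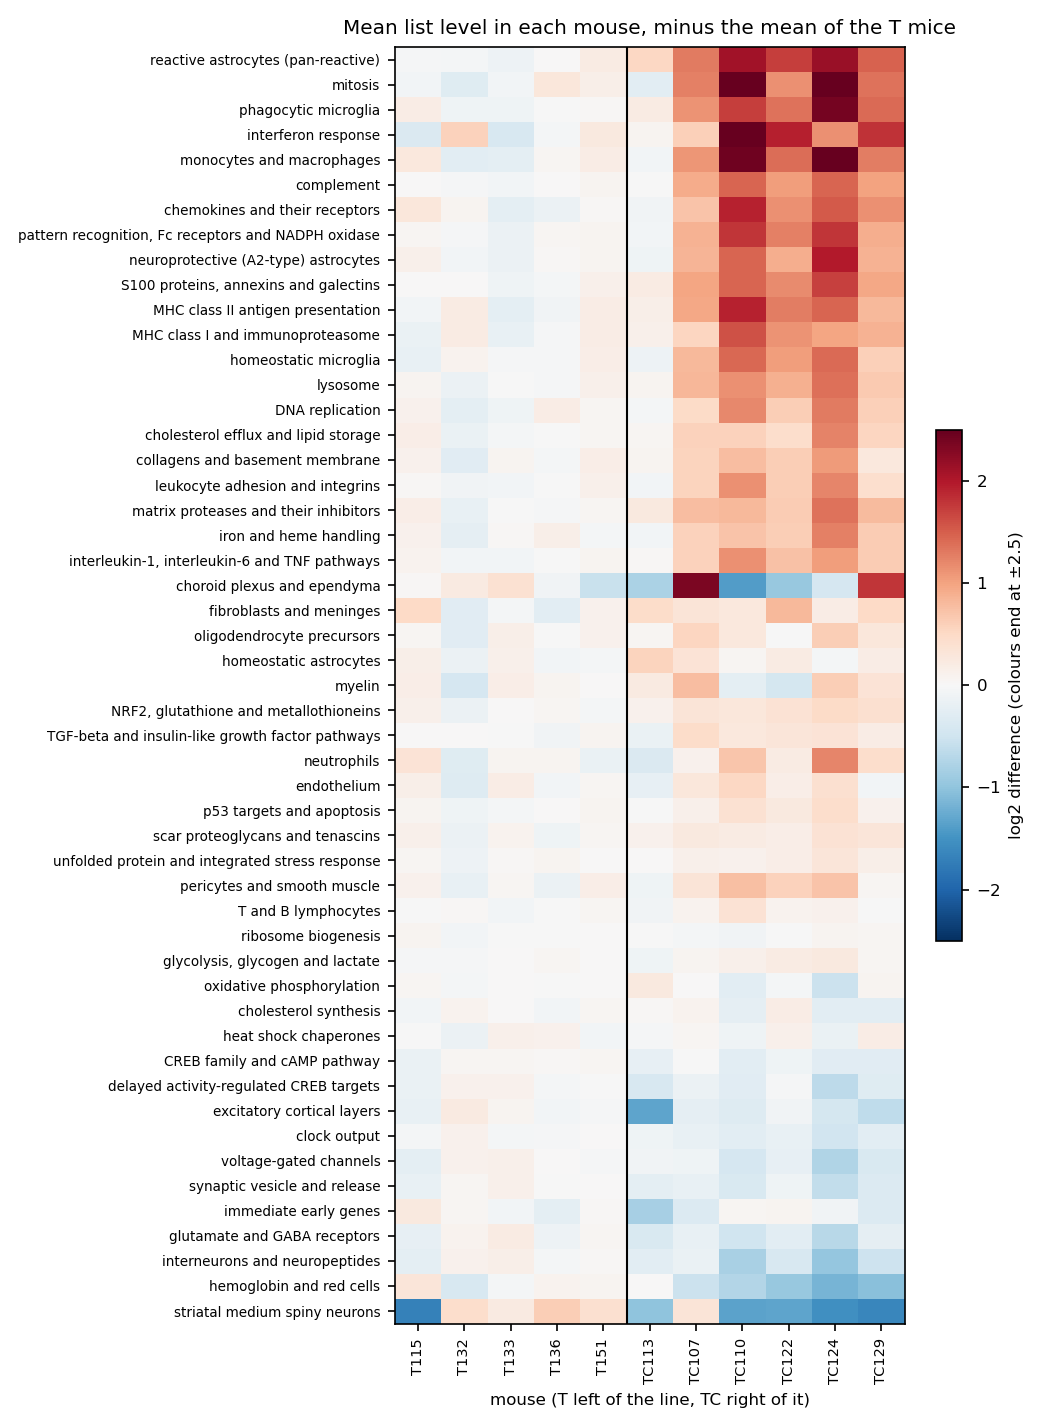
Mean log2 level of each of 51 gene lists in each T and TC mouse, minus the mean of the 5 T mice, with lists in the order of their median ratio. TC113, first right of the line, is pale where the other TC mice are red, and T115 and TC107 stand out in the striatal list.

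Some genes of adhesion and of the extracellular matrix rose. Of 22 leukocyte adhesion and integrin genes 8 rose and 0 fell (median 0.48), among them the hyaluronan receptor Cd44 (1.84 ± 0.34) and the integrin Itga6 (1.15 ± 0.25). S100 proteins, annexins and galectins rose in 15 of 23 cases and fell in 0 (median 0.84), led by Lgals3, by Lgals1 (2.26 ± 0.36) and by S100a11 (1.91 ± 0.27). Of 24 matrix proteases and inhibitors 7 rose and 0 fell (median 0.43). Besides Timp1 these included the broad protease inhibitor A2m (1.12 ± 0.13, adjusted p = 0.00024), which was well above background in 1 of 5 T mice, the protease Adamts1 (1.11 ± 0.23) and Mmp19, which was not well above background in any T mouse and was at least 1.35-fold higher by the group means. Of 26 collagen and basement membrane genes 6 rose and 1 fell (median 0.49). Col3a1 rose by 1.57 ± 0.37, Col18a1 by 1.37 ± 0.25 and nidogen, Nid1, by 0.81 ± 0.17. P4ha1, a collagen hydroxylase named after its value was seen, fell by 0.36 ± 0.09 (adjusted p = 0.030, and 0.062 with slide as a block).

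Proteoglycan genes of the glial scar gave 4 of 23 higher and 0 lower (median 0.15), including the syndecan Sdc4 (0.77 ± 0.17) and decorin, Dcn (1.37 ± 0.34). Of 28 TGF-beta and insulin-like growth factor genes 4 rose and 0 fell (median 0.21): the binding protein Igfbp2 (1.82 ± 0.41), the repressor Tgif1 (1.10 ± 0.24) and the ligand Tgfb1 (0.95 ± 0.24) were among them. Few markers of vessel walls passed, though most had positive ratios, against 46.3% of all features. Of 22 endothelial genes 17 had positive ratios and 0 passed (median 0.17). Of 15 pericyte and smooth muscle genes 12 had positive ratios (median 0.08). Among these 2 rose, Cnn1, a smooth muscle protein (1.74 ± 0.48), and the receptor Notch3 (0.66 ± 0.20). Of 16 fibroblast and meningeal genes 2 rose (median 0.31), Col3a1 and Dcn. Under the slide block Dcn (adjusted p = 0.053), Tgfb1 (0.059), Cnn1 (0.080) and Notch3 (0.11) did not pass, and Notch3 did not pass without TC113 either (adjusted p = 0.054).

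Genes of lysosomes and of lipid and iron handling rose as well. Of 28 lysosomal genes 16 rose and 0 fell (median 0.67), among them the protease Lgmn (1.17 ± 0.22) and the membrane protein Lamp2 (0.89 ± 0.15). Of 24 genes of cholesterol efflux and lipid storage 7 rose and 0 fell (median 0.54). The lipid droplet protein Plin2 rose by 2.20 ± 0.50, Apoc1 by 1.24 ± 0.27, the liver X receptor Nr1h3 by 0.74 ± 0.13 and the cholesterol carrier Npc2 by 0.71 ± 0.16. Of 24 cholesterol synthesis genes 1 rose, the isomerase Ebp (0.43 ± 0.13, median of the list -0.06), which did not pass with slide as a block (adjusted p = 0.11). Of 20 iron and heme genes 6 rose and 0 fell (median 0.41), among them Hfe (1.15 ± 0.21), hemopexin, Hpx (1.46 ± 0.39), and transferrin, Trf (1.14 ± 0.26), which was also the only one of 19 myelin genes to pass (median 0.23). Hmox1, the enzyme that breaks down heme, had 9.40, 9.09, 8.58, 9.48 and 9.45 in T mice, 9.38 in TC113 and 11.14 to 14.87 in the other TC mice. It rose by 2.56 ± 0.63 (5.89-fold, adjusted p = 0.022), and with slide as a block it did not pass (adjusted p = 0.058). Its 2 probes gave 1.29 and 2.56, and the brighter probe is the one reported.

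Red cell genes moved the other way. Of 8 measured hemoglobin and red cell genes 5 fell and 0 rose (median -0.76). Hbb-bt fell by 0.99 ± 0.28, Hba-a1 by 0.87 ± 0.23, Hba-a2 by 0.71 ± 0.20 and Alas2, which starts heme synthesis, by 0.91 ± 0.25. Hemoglobin copies are nearly identical, so their probes may share signal. The mean level of the list was 10.70 to 11.42 in T mice, 11.11 in TC113 and as low as 9.95 in the other TC mice. The ratio on array I was 0.06 for Hbb-bt and -0.02 for Hba-a1. With slide as a block 0 of the 8 passed, and without TC113 7 did.

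Antioxidant genes gave 7 of 31 higher and 1 lower (median 0.22). Besides Mgst1 and Hmox1 the risers included the regulator Nfe2l2, also called NRF2 (0.96 ± 0.22), glucose-6-phosphate dehydrogenase, G6pdx (0.71 ± 0.14), and metallothionein Mt2 (0.73 ± 0.18), while Mgst3, named after its value was seen, fell by 0.38 ± 0.11 (adjusted p = 0.049, and 0.10 with slide as a block). Of 31 genes of glycolysis, glycogen and lactate 4 rose and 0 fell (median -0.01), among them the glycogen targeting subunit Ppp1r3c (0.68 ± 0.13) and hexokinase Hk2 (1.01 ± 0.26). Of 29 oxidative phosphorylation genes 0 passed (median -0.04). Single stress genes rose: Atf3 (1.55 ± 0.24) and Atf5 (0.61 ± 0.16) among 3 of 27 unfolded protein and integrated stress response genes (median 0.11), and the cochaperone Bag3 (1.29 ± 0.17, adjusted p = 0.000533) and Hspb8 (0.97 ± 0.15) among 17 heat shock genes (median -0.11). Of 23 p53 target and apoptosis genes 3 rose (median 0.15): Casp8 (1.16 ± 0.29), the death receptor Fas (0.74 ± 0.21) and Gadd45g (0.60 ± 0.12). The slide block ended the calls of Hk2 (adjusted p = 0.072), Atf5 (0.051), Casp8 (0.064) and Fas (0.085).

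**Figure D4:**
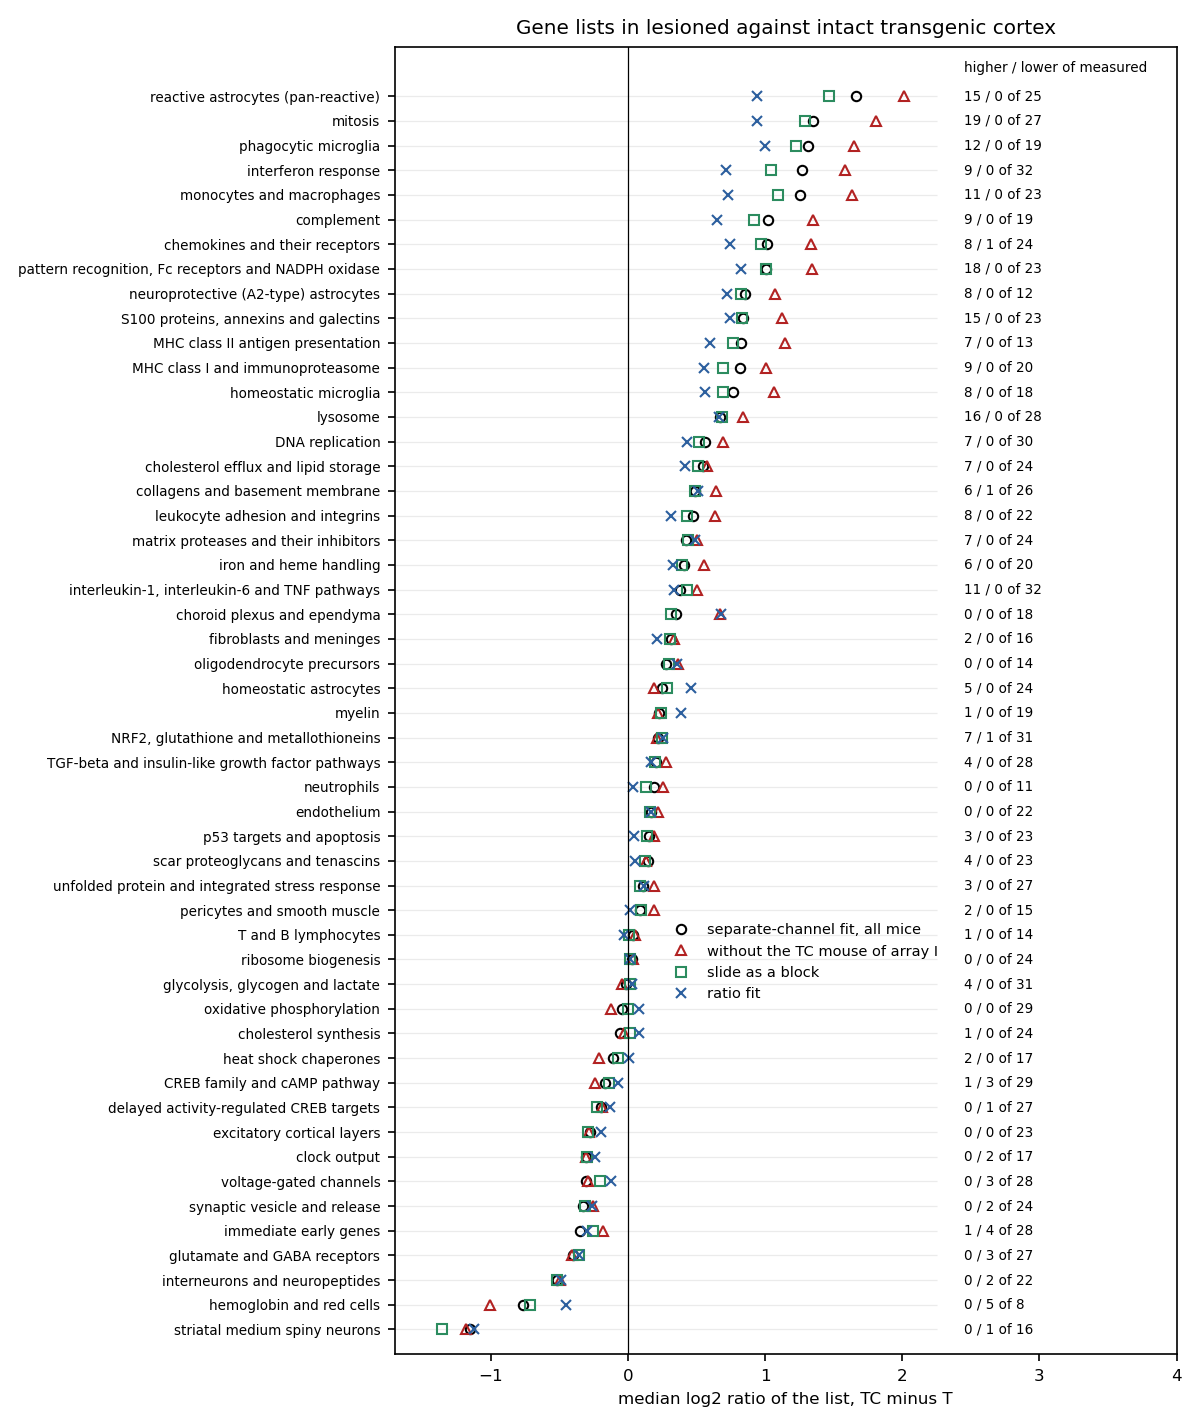
Median TC minus T log2 ratio of each of 51 gene lists in the separate-channel fit with all mice, without TC113 and with slide as a block, and in the ratio fit, with the number of members that passed at the right. Medians run from 1.66 for pan-reactive astrocytes to -1.15 for striatal neurons in the fit with all mice.

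Neuronal genes were lower on balance, by small amounts. Of 24 synaptic vesicle and release genes 2 fell and 0 rose (median -0.33), the vesicle fusion genes Vamp2 (-0.44 ± 0.10) and Unc13a (-0.54 ± 0.13). Of 27 glutamate and GABA receptor genes 3 fell (median -0.40), Gria3 by 0.70 ± 0.17, Grm7 by 0.49 ± 0.14 and Grin1 by 0.37 ± 0.10. Of 28 voltage-gated channel genes 3 fell (median -0.31), among them the sodium channels Scn2a (-0.48 ± 0.12) and Scn3a (-0.59 ± 0.16). Of 22 interneuron and neuropeptide genes 2 fell (median -0.52), Vgf by 0.55 ± 0.11 (adjusted p = 0.0073) and Cort, the cortistatin precursor. Under the slide block Grm7 (adjusted p = 0.096), Grin1 (0.082) and Scn3a (0.074) did not pass. Of 23 genes of excitatory cortical layers 0 passed (median -0.28). In TC113 that list was far lower than in any other mouse, and on array I the ratio was -3.26 for the kinase Camk2a and -3.84 for the layer factor Fezf2, against -0.64 and -0.70 on array J.

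The largest fall was that of Cort. It had 12.04, 13.08, 12.73, 12.13 and 12.31 in T mice, 8.94 in TC113 and 10.56 to 11.38 in the other TC mice. It fell by 1.71 ± 0.50 (3.27-fold, adjusted p = 0.044), and without TC113 by 1.23, which did not pass (adjusted p = 0.085). The other large falls were Lrrc10b (-1.68 ± 0.47), the lipid droplet gene Plin4 (-1.60 ± 0.38), Kcnf1, a silent potassium channel subunit (-1.31 ± 0.31), Slc23a3 (-1.31 ± 0.29), the actin crosslinker Actn2 (-1.26 ± 0.38), Lypd1, which binds nicotinic receptors (-1.10 ± 0.26), and the nuclear factor Tox (-1.08 ± 0.32). Of these, Lrrc10b, Actn2 and Tox did not pass without TC113 (adjusted p = 0.057, 0.081 and 0.063). The slide block ended the calls of Cort (adjusted p = 0.11), Lrrc10b (0.081) and Actn2 (0.085). Lrrc10b and Actn2 overlapped between the groups, with T115 the lowest T mouse and TC107 the highest TC mouse for both. Actn2 was 7.78 in T115 and 9.40 or more in the other T mice. It was 9.02 in TC107 and 8.05 or less in the other TC mice. On array J, which held TC107, the ratio was -0.09 for Lrrc10b and -0.04 for Actn2, against -3.065 and -2.776 on array I. T115 and TC107 also stood apart in the striatal list below, and its part in these falls was not tested. The most even fall was that of Cyp4f15, a cytochrome P450 of fatty acid metabolism, with 9.82, 9.65, 10.06, 9.80 and 9.73 in T mice and 8.32 to 9.01 in TC mice, the latter in TC113. It fell by 1.04 ± 0.13 (2.06-fold, adjusted p = 0.000394).

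Cortical samples can hold neighbouring tissue, and 2 lists varied widely within the groups. The 16 striatal genes all had negative ratios (median -1.15), of which 1, Pdyn, passed (-0.46 ± 0.13), though neither with slide as a block (adjusted p = 0.067) nor without TC113 (adjusted p = 0.056). Their mean level was 9.09 in T115 and 10.99 to 11.39 in the other T mice. It was 11.09 in TC107 and at most 9.76 in the other TC mice. The dopamine receptor Drd1 had -1.69 ± 0.64 (adjusted p = 0.11) and the enkephalin precursor Penk -1.83 ± 0.72 (adjusted p = 0.12). The choroid plexus and ependyma list had a median of 0.35 with 0 of 18 passing, and its level was 11.75 in TC107, 11.19 in TC129 and at most 8.98 in the other TC mice, against 8.85 to 9.78 in T mice. The part of this variation in the neuronal values was not tested.

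Immediate early genes and CREB targets did not rise as lists. Of 28 immediate early genes 4 fell and 1 rose (median -0.35, and -0.18 without TC113, where 3 fell and 2 rose). Nr4a1, a nuclear receptor induced by activity, had 14.24, 14.01, 13.69, 13.27 and 14.08 in T mice and 12.01 (TC113), a median of 12.75 and a highest value of 13.46 in TC mice. It fell by 1.08 ± 0.25 (2.11-fold, adjusted p = 0.018). Egr4 fell by 1.45 ± 0.37 and Egr2 by 1.13 ± 0.30, zinc finger factors of the same response, and Egr2 did not pass without TC113 (adjusted p = 0.052). Maff was the 1 that rose. The slide block left 1 fall and 0 rises in this list, and ended the calls of Egr4 (adjusted p = 0.063), Egr2 (0.055) and Maff (0.056). Of 27 delayed activity-regulated CREB targets 1 fell, Vgf, and 0 rose (median -0.20). Gem, a small GTPase, had 0.66 ± 0.20 (adjusted p = 0.053).

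Of 29 genes of the CREB family and the cAMP pathway 3 fell and 1 rose (median -0.17). The phosphodiesterase Pde4a fell by 0.36 ± 0.08 and the regulatory subunits of protein kinase A, Prkar1b and Prkar2b, by 0.52 ± 0.14 and 0.65 ± 0.19, while Creb3l2, a membrane-bound relative of CREB, rose by 0.46 ± 0.12. Under the slide block Prkar1b (adjusted p = 0.068) and Prkar2b (0.064) did not pass. Prkar2b was 12.50 in T115 and 12.96 or more in the other T mice, and its highest TC level was 12.79 in TC107. Pde4a was not low in T115 (13.06). On array J, which held TC107, the ratio was -0.06 for Prkar2b, -0.18 for Prkar1b and 0.11 for Pde4a. Array I gave -0.92, -0.83 and -0.58. T115 and TC107 also stood apart in the striatal list above, and its part in these falls was not tested. Creb1 itself had 8.42, 8.39, 8.40, 8.34 and 8.21 in T mice and 7.26 to 8.51 in TC mice, a log2 ratio of -0.29 ± 0.15 (adjusted p = 0.25). Its 2 probes disagreed, at -0.29 and 0.20, and whether they read the transgene is not known here. Crem, which codes for a relative of CREB, had 0.24 ± 0.15 (adjusted p = 0.34). Among 17 clock output genes 2 fell and 0 rose (median -0.31), Ciart by 0.53 ± 0.13 and Cry2 by 0.38 ± 0.09.

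The last comparison asked whether the lesion effect differed between the genotypes, as (TC minus T) minus (WTC minus WT). No feature passed in either fit (0 of 26082, 0%), with 1547 at an unadjusted p under 0.05 in the separate-channel fit. Of the 24 genes with the largest ratios by the rule above, 11 of the 12 that rose also had wild-type ratios of 3.49 or more. The exception was Nps, with 0.35 ± 0.67 in wild type against 2.97 ± 0.66, a difference of 2.62 ± 0.88 (adjusted p = 0.78). These are fitted values, and for Nps, Tgm1 and Cd5l they are set against T mice of which at most 1 was well above background, so their size depends on the background level. Among the falls, Egr2 had 0.06 ± 0.31 in wild type against -1.13 ± 0.30, Nr4a1 -0.16 ± 0.26 against -1.08 ± 0.25 and Plin4 -0.35 ± 0.38 against -1.60 ± 0.38, and the difference did not pass in any of them (adjusted p = 0.78). Cyp4f15 had -1.01 ± 0.13 in wild type, close to its value in transgenic mice.

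**Figure D5:**
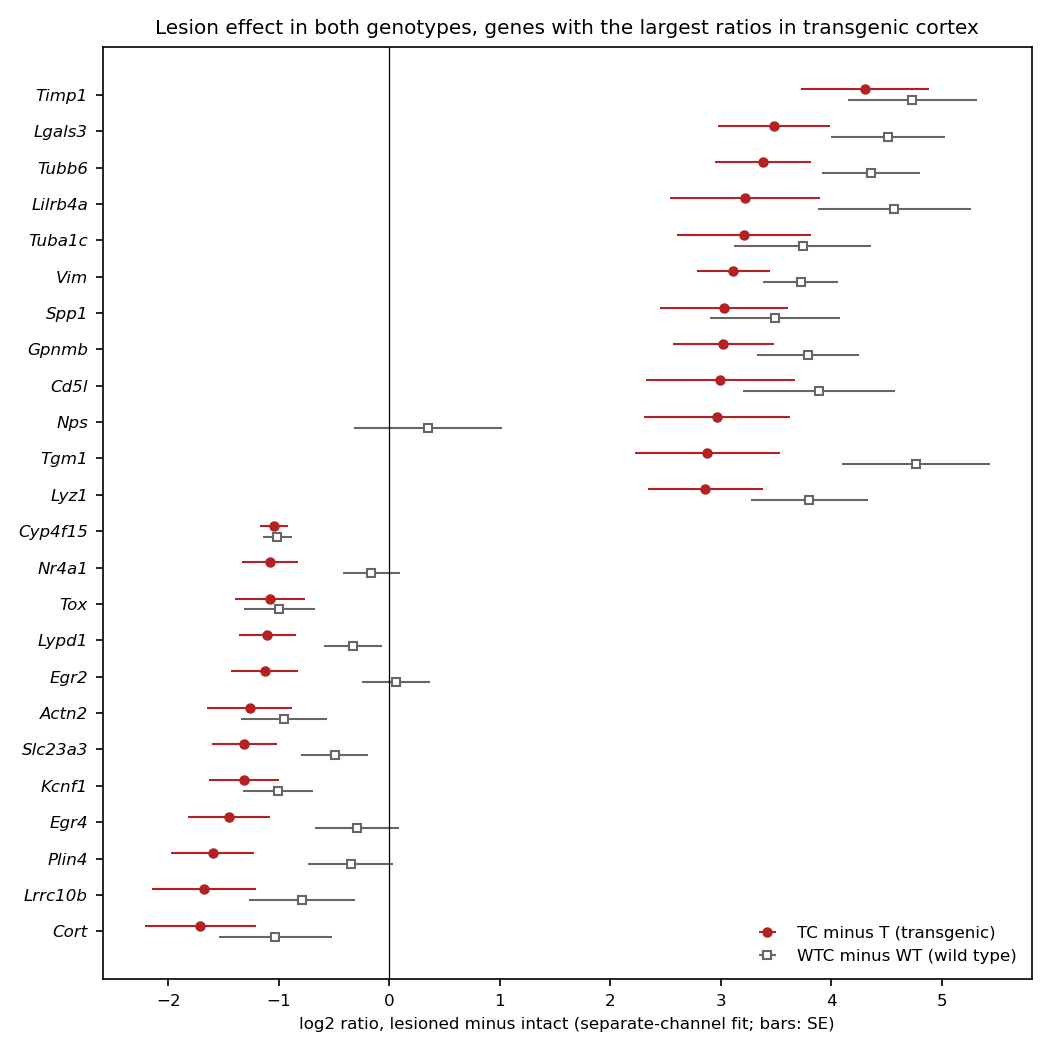
TC minus T log2 ratio (filled circles) and WTC minus WT log2 ratio (open squares) with SE for the 24 genes with the largest ratios in transgenic cortex. Nps stands near 0 in wild type and at 2.97 in transgenic mice, and the difference between genotypes did not pass for any of the 24. T mice were mostly at background for Nps, Tgm1 and Cd5l.

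Without TC113 the genotype difference passed for 2 features, Fbxl21 and Pax1, named after their values were seen. Fbxl21, an F-box protein that acts in the circadian clock, had 7.48, 7.79, 7.91, 7.77 and 7.75 in T mice and 8.04 (TC113) to 9.82 in TC mice. Its TC minus T ratio was 1.34 without TC113, and the difference from wild type 1.87 (adjusted p = 0.011), against 1.71 (adjusted p = 0.20) with all mice. The transcription factor gene Pax1 had 6.08 to 6.15 in T mice, 6.15 in TC113 and 6.40 to 6.91 in the other TC mice. It was not well above background in any T mouse, so no size is given for its difference (adjusted p = 0.025 without TC113 and 0.78 with all mice). With slide as a block 0 features passed.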

How the data were processed

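The members, gene lists and rules were chosen with earlier results of these data known. Cortical RNA of 22 mice was hybridised to 11 Agilent arrays of 62976 spots. The spot and background intensities are unnormalized scanner values, deposited as Feature Extraction 10.7.3.1 wrote them per the file headers, with a log10 ratio that Feature Extraction had dye-normalized, per the file headers. The authors' deposited table holds log fold changes, read here as log2 though the base is not stated, and adjusted p-values, and limma is named in the submitters' processing notes. The design text speaks of several hybridisations per sample, while each mouse is on 1 array here.

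Intensities were corrected with normexp (offset 50) and loess in limma 3.58.1 (R 4.3.3). Control spots were left out, and so were outlier spots (0.533% of the spots that are not controls). A probe had to exceed background clearly in 5 or more of the 22 channels (35552 of 55681 did), and the probe of highest mean intensity stood for a gene. The symbols were taken from RefSeq by the transcript accession that the array files give for each probe. The ratio fit had group and dye terms (7 residual degrees of freedom). The separate-channel fit used Aquantile-normalized levels with group, dye and array as a random block (correlation 0.2943, 17 residual degrees of freedom), so fitted ratios differ from differences of group means. Groups came from the titles. Named genes were the 12 per direction described in the report, the 3 with the smallest ratio-fit p, up to 4 with the smallest p of each list, and Gfap, Vim, Timp1, Aif1, Creb1, Crem and Hmox1. The labels do not say whether mice share a litter. The fits were run on simulated data that gave all groups the spread of the T mice and held no slide effect. That run does not cover the wider spread of many genes in TC mice or the imbalance over slides. Alternatives covered normalization, filters, weights, labels, slide, sex and each mouse.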

Additional observations from a re-analysis of the deposited data

Results flagged for a closer look

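Of 152 sets of levels (a named gene or a list in 1 group of 5 T or 6 TC mice), 9 held a mouse far from the others of its group, and chance gives about 1 in 20. Vim was 12.55 in T151 and 11.62 to 11.83 in the other T mice. Nps was 6.48 in T132 and at most 6.13 in the other T mice. Mgst1 was 12.28 in TC124 and 11.65 to 11.86 in the other TC mice. TC113 was far below the other TC mice for Cort, at 8.94 against 10.56 or more, and for the mean of the complement list, at 9.90 against 10.82 or more. The mean of the myelin list was 12.31 in T132 and 12.74 to 12.89 in the other T mice. The mean of the striatal list was 9.09 in T115, with the other T mice at 10.99 or more, and 11.09 in TC107, with the other TC mice at 9.76 or less. The mean of the CREB and cAMP list was 11.18 in T115 and 11.36 to 11.39 in the other T mice.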

How the results depend on the processing

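The separate-channel fit called 1242 features higher and 676 lower. It called 0 and 0 with the channel 2 labels, 0 and 0 within slide 2, 678 and 66 within slide 1 (whose single TC mouse is assumed to vary like the others), 671 and 201 with slide as a block, 92 and 24 with T and TC mice only, 410 and 217 with no normalization between arrays, and 2376 and 1897 with array quality weights. Lower calls were 196 with median centring, 392 with no dye term and 146 without arrays I, J and K. The share of calls that were higher was 64.8%, and 86.3% with median centring, 86.1% when the 3 arrays of contradictory labels were left out and 76.9% with slide as a block. Leaving out 1 mouse gave 268 to 2127 higher and 77 to 1166 lower: 268 and 77 without T132, 423 and 126 without T133, 594 and 206 without T136, 753 and 378 without TC107, 765 and 394 without TC110, 2127 and 1166 without TC113, and 291 and 301 lower without T151 and TC124. With slide as a block and without TC113, chosen after seeing the data, it was 1830 and 582.

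The ratio fit called 0, except 1281 higher and 457 lower with array quality weights and 0 to 6 higher and 0 to 1 lower when 1 array was left out (3 and 1 without array A, 1 without E, 6 without I). The genotype difference gave 0, and 2 without TC113. With the channel 2 labels 4 of 157 genes changed sign, Cort (0.055), Cx3cl1 (0.011), Scn3a (0.002) and Camk2a (0.252), and 144 lost their call. Slide as a block took the call from 38 of the 157, and leaving out T132 from 83. The cause was not tested in any of these. The sex covariate used Y-linked genes, since Xist was not well above background. No paired analysis was possible because the labels give the groups no shared replicate numbers to block on, apart from the mice that shared an array, which the ratio fit and the array block already take together. The number of mice and dim probes limit what can be called.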
